A study of Mus musculus with 15 samples.

Results

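The diet effect shared by both segments of the mouse aorta was taken from all 15 arrays of the series, 8 from abdominal and 7 from thoracic aorta. The members of this comparison are the genes whose level differed between diets in the mean of both segments and moved the same way in each of them. All mice were of the strain DBA/2NCrl and 8 weeks old when the experiment began. For 5 days they were fed either chow with a raised phosphate content (HPD, 20.2 g of phosphorus in each kg) or control chow (SCD, 7.0 g in each kg). The arrays comprised 4 abdominal HPD, 4 abdominal SCD, 3 thoracic HPD and 4 thoracic SCD samples, each labelled a biological replicate. The labels name no transgene or other agent for any group and do not say whether an abdominal and a thoracic array came from 1 mouse. The study asks how dietary phosphate affects aortic gene expression.

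Phosphate taken up in excess is handled by the kidney under the control of parathyroid hormone, FGF23 with its coreceptor Klotho, and vitamin D. In the vessel wall a high phosphate load is known for driving calcification, in which smooth muscle cells take on features of bone-forming cells. The mouse aorta is wrapped in perivascular fat that has many traits of brown fat, a tissue rich in mitochondria that burns fatty acids and makes heat through the uncoupling protein Ucp1. Glucocorticoids, the hormones of the adrenal cortex, act through a nuclear receptor that switches on a well known set of target genes in most tissues, and FoxO transcription factors switch on another set when insulin signalling is low.

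Values below are log2 intensities, one per gene and array, and a difference of 1 is a 2-fold change. Changes are HPD minus SCD, averaged over the segments, and are given with the SE from limma and the limma p adjusted over all 22180 genes (Benjamini-Hochberg). Array medians lay between 5.778 and 5.84, and Pearson's r across probe sets between arrays of a group was 0.9739 to 0.9885. The mean of 22 smooth muscle contractile genes was 8.14 to 9.35 in all arrays, and that of 16 pan-adipocyte genes 8.48 to 9.65, so genes that mark the vessel wall and fat were well above the array median in each. Marker genes of other tissue were high in some arrays. Averaged per array, 12 genes of T and NK cells stood at 7.32 to 8.05 in 5 abdominal arrays, HPD 1, 2 and 4 and SCD 2 and 4, and 5.37 to 5.93 in the others. The mean of 13 hepatocyte genes was 8.59 and 10.39 in abdominal HPD arrays 3 and 4 and 6.84 in thoracic SCD array 4, against 5.67 to 6.22 elsewhere. Every abdominal HPD array was thus high in T and NK cell genes or in hepatocyte genes, and array 4 in both. Leaving out the arrays high in T and NK cell genes keeps only abdominal HPD array 3. Precision is limited by having 3 or 4 arrays in a group. In such bulk tissue fewer cells of a type and less RNA per cell cannot be told apart.

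More genes were lower than higher on HPD in the mean of the segments. A gene can pass on that mean mainly through its change in a single segment. Of 22180 genes, 1001 (4.51%) were higher and 1367 (6.16%) lower on HPD in the mean of the segments, at an adjusted p under 0.05 with the same sign in each segment, 2368 in all. A further 8 genes passed on the mean with opposite signs and are not counted. At least 2-fold differences were found for 32 of the higher and 60 of the lower genes. Every HPD array lay on one side of every SCD array, in each segment, for 429 (1.93% of all genes) of the higher and 578 (2.61%) of the lower genes. Whatever their p, 1.99% of all genes stood apart in this way upward and 2.65% downward. The median change of all genes was -0.01. Of the 2368 genes, 172 have symbols of predicted genes and are counted here without being named.

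A stricter count took the genes that passed in each segment on its own. These were 395, of which 179 (0.807%) were higher and 216 (0.974%) lower, and 0 genes passed in both segments with opposite signs. They made up 25.4% of the 1554 genes (7.01%) that passed in the abdominal segment and 72.1% of the 548 (2.47%) that passed in the thoracic one. Genes past the threshold in the abdominal segment had the same sign in the thoracic one in 1482 cases (95.4%). For thoracic genes the count was 531 (96.9%), and over all genes the share was 63.4%. Across all genes the abdominal and thoracic changes gave a Pearson's r of 0.481 and a Spearman's rho of 0.416, where genes are not independent replicates. The stricter count rested on single thoracic arrays. It was 166 without SCD array 1, 187 without HPD array 3, 200 without HPD array 2, 216 without SCD array 4 and 240 without SCD array 2. With the 5 arrays high in T and NK cell genes left out, 983 genes were shared (451 higher, 532 lower) and 61 passed in each segment, and without the 3 high in hepatocyte genes the counts were 2059 and 183.

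**Figure D1:**
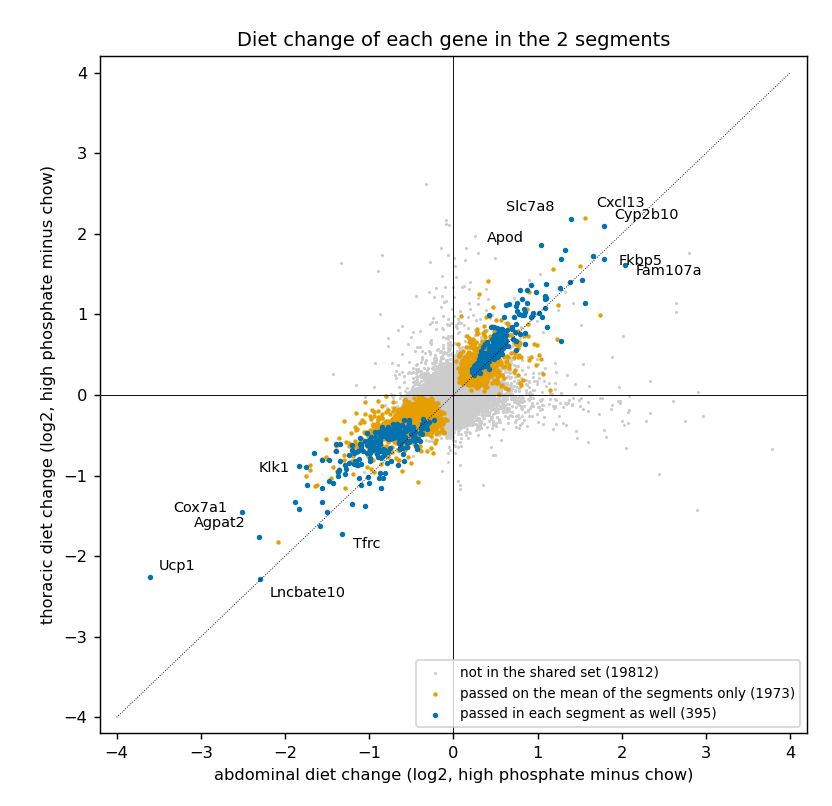
Each of 22180 genes by its diet change in abdominal (x axis) and thoracic aorta (y axis), HPD minus SCD on the log2 scale, with genes that passed only on the mean of the segments in orange and the 395 that also passed in each segment in blue. The dotted line marks equal change, and more of the points below 0 on both axes lie above that line, where the abdominal fall was the larger.

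The size of the shared change was then compared between segments by the difference of the 2 diet changes. No gene passed by limma (0 genes, lowest adjusted p = 0.705), and 1217 of 22180 had an unadjusted p under 0.05, 314 of them in the shared set. Among the 1367 shared falls the abdominal change was the larger in 1119. Among the 1001 shared rises it was the larger in 368. Ucp1 had a change of -3.61 in the abdominal and -2.26 in the thoracic segment, and Slc7a8 one of 1.39 and 2.19. These differences of size are given as values, since the test of the difference passed for none of the genes.

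Genes known to be switched on by glucocorticoids were higher on HPD in both segments. Of 22 genes on this list 18 rose (81.8%, against 4.51% of all genes) and 2 fell, and 11 of the rises and 1 of the falls passed in each segment as well. The median change of the list was 0.72, with 0.75 in the abdominal and 0.73 in the thoracic segment. The list mean was 8.1 to 8.31 in the abdominal HPD arrays against 7.29 to 7.72 on SCD, and 8.18 to 8.53 against 7.4 to 7.63 in the thoracic segment, so that no HPD array overlapped an SCD array.

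Fkbp5, a cochaperone that binds the glucocorticoid receptor and is itself a target of it, had the smallest p on this list. Its level was 5.93, 6.52, 6.13 and 6.12 in the abdominal SCD arrays and 7.77, 8.1, 7.96 and 8.02 in the abdominal HPD arrays. In the thoracic segment it was 5.92, 6.3, 5.8 and 6.1 on SCD and 7.37, 8.15 and 7.6 on HPD. Every HPD array lay above every SCD array of both segments, by a mean change of 1.74 ± 0.12 (3.33-fold, adjusted p = 2.53e-06). Fam107a, an actin-associated gene also known to respond to glucocorticoids, read 7.7, 7.62, 6.7 and 7.47 on SCD and 9.19, 9.23, 9.83 and 9.37 on HPD in abdominal aorta. The thoracic values were 7.4, 6.79, 7.13 and 7.64 on SCD and 8.96, 8.8 and 8.8 on HPD. It rose by 1.83 ± 0.158 (3.54-fold, adjusted p = 7.33e-06), and its other probe set by 0.77. Map3k6, a stress-activated kinase, moved from 6.0, 5.72, 5.56 and 5.54 to 6.49, 6.56, 6.62 and 6.57 in the abdominal arrays and from 5.67, 5.84, 5.62 and 5.93 to 6.72, 7.1 and 6.55 in the thoracic ones. The diets did not overlap, and the change was 0.94 ± 0.091 (adjusted p = 1.43e-05).

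The 2 members that fell, named after their values were seen, were Nr3c1, the glucocorticoid receptor itself (-0.34 ± 0.0612, adjusted p = 0.00166), and Pdk4, a kinase that holds back the oxidation of pyruvate (-0.59 ± 0.136, adjusted p = 0.00956). Nfkbia, which holds the inflammatory factor NF-kB in the cytoplasm, was among the rises (0.56 ± 0.078, adjusted p = 0.000245). Its level was 7.73, 7.85, 7.48 and 8.08 on SCD and 8.33, 8.37, 8.27 and 8.41 on HPD in abdominal aorta. Without the 5 arrays high in T and NK cell genes, which leaves 1 HPD and 2 SCD arrays in the abdominal segment, 14 of the 22 genes rose and 1 fell, and without the 3 arrays high in hepatocyte genes 16 rose and 1 fell.

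**Figure D2:**
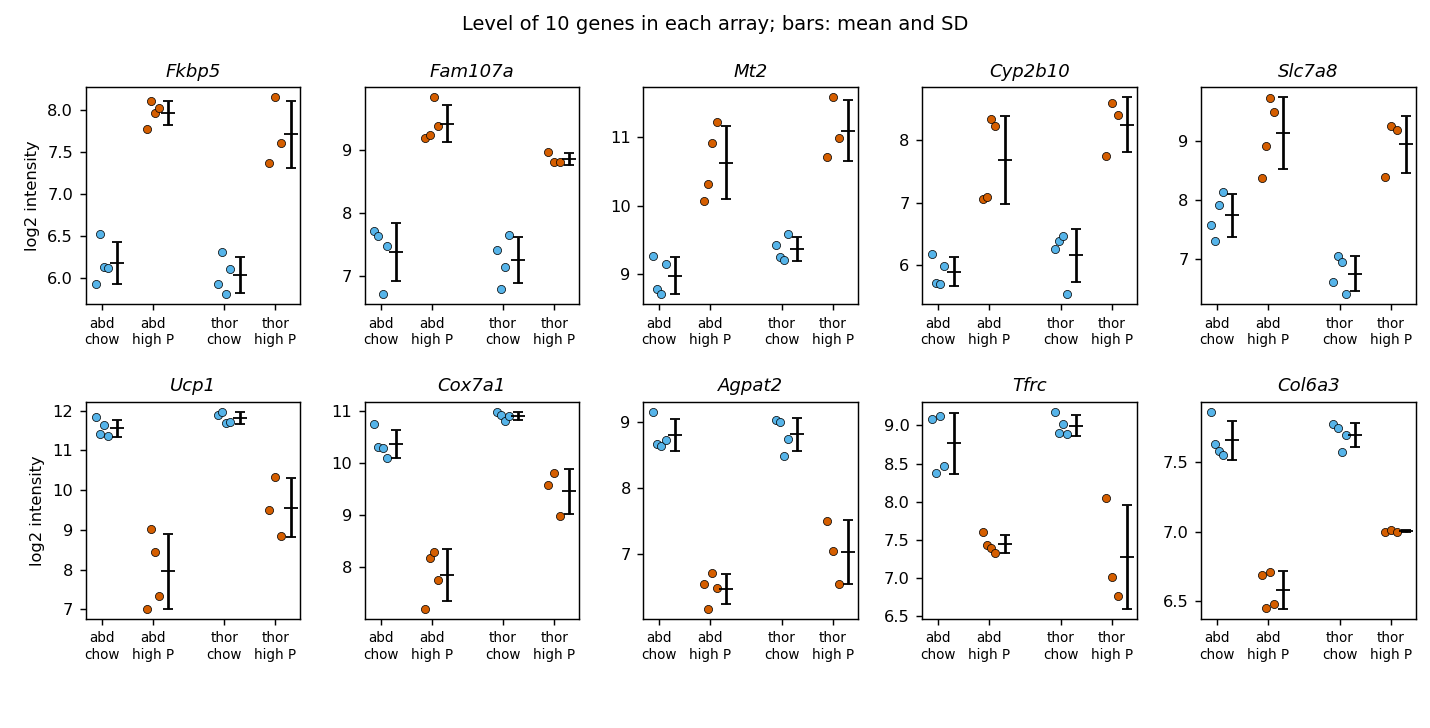
Log2 intensity of 10 genes in each of the 15 arrays (points), by segment (abd, thor) and diet (chow is SCD, high P is HPD), with the mean and SD of each group as bars. The top row rose and the bottom row fell, and in no panel do the points of the diets overlap within a segment. For every gene shown except Col6a3 this was a condition of its choice.

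Metallothioneins, small proteins that bind zinc and copper and respond to both metals and glucocorticoids, were listed with genes of the acute-phase response. Of 13 measured genes on this list 6 rose and 1 fell (46.2% and 7.69%, against 4.51% and 6.16% of all genes). In each segment 3 rises and the fall passed, and the median change was 0.6. In abdominal aorta the list mean overlapped between diets, at 7.72, 7.74, 8.34 and 8.85 on HPD against 7.76 to 8.0 on SCD. HPD arrays 3 and 4, which alone were above SCD there, are the ones high in hepatocyte genes, whose part in the list's change was not tested. In thoracic aorta it was 8.3 to 9.14 on HPD and 7.91 to 8.23 on SCD, without overlap. Without the 3 arrays high in hepatocyte genes 5 genes rose and 2 fell, with a median of 0.48. Mt2 read 9.27, 8.78, 8.71 and 9.15 on SCD and 10.06, 10.31, 10.91 and 11.22 on HPD in the abdominal arrays. In the thoracic arrays it read 9.42, 9.25, 9.2 and 9.59 and 10.71, 11.58 and 10.98. All HPD values exceeded all SCD values, and Mt2 rose by 1.69 ± 0.171 (3.23-fold, adjusted p = 2.02e-05). Its neighbour Mt1 rose less, from 9.34, 9.14, 9.0 and 8.74 to 9.43, 9.55, 9.91 and 10.1 in the abdominal segment and from 9.38, 9.39, 9.44 and 9.42 to 10.04, 10.41 and 10.22 in the thoracic one (0.75 ± 0.105, adjusted p = 0.000248). The thoracic SCD arrays were close together and all thoracic HPD arrays above them, whereas in the abdominal segment the highest SCD array came close to the lowest HPD array.

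The promoters of these genes are shown because they rose together and lie side by side on chromosome 8. The 250 bases before the start of each gene come from RefSeq (GRCm38.p6, plus strand, chr8:94178839-94179088 for Mt1 and chr8:94172368-94172617 for Mt2). Capitals mark the core of the metal response element, TGCACNC or TGCGCNC, searched on both strands, which is known as the site of the zinc-sensing factor MTF1.
Mt1: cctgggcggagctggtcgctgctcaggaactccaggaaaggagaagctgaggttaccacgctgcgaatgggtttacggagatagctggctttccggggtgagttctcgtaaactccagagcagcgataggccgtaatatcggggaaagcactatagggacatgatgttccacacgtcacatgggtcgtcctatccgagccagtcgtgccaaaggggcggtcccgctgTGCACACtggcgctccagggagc
Mt2: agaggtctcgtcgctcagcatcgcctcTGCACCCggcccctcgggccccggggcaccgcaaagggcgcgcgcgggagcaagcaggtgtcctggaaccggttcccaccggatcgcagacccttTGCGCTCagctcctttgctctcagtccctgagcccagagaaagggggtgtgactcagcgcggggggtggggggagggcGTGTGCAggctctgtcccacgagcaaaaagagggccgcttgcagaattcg
The window of Mt1 holds 1 such core and that of Mt2 holds 3. Bases outside each window, also those after the annotated start, were not searched, so these counts do not compare the whole promoters of Mt1 and Mt2. The same letters occur in 4182 of the 16990 promoters of tested genes (24.6%), in 27.2% of those of genes that rose and in 31.2% of those of genes that fell, so a match is common and is a description only. Another short motif, AGAACA on either strand, the hexamer that 1 unit of the glucocorticoid receptor binds, is in neither window. It occurs in 2 of 19 promoters of the glucocorticoid list (10.5%), in 3 of 10 of the metallothionein and acute-phase list (30%) and in 14.2% of all.

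Other members of this list were the acute-phase protease inhibitor Serpina3n and the copper oxidase Cp, ceruloplasmin. Serpina3n read 8.43, 8.23, 8.74 and 8.67 on SCD and 9.48, 9.54, 10.18 and 10.88 on HPD in abdominal aorta, and 7.68, 7.92, 8.86 and 7.7 against 8.87, 10.75 and 9.28 in thoracic aorta. It rose by 1.55 ± 0.283 (2.93-fold, adjusted p = 0.00194), with an adjusted p of 0.0574 in the thoracic segment alone. Its highest values, 10.88 and 10.75, were those of abdominal HPD array 4, which is high in hepatocyte genes, and thoracic HPD array 2, which is not. Cp rose by 0.56 ± 0.0933 (adjusted p = 0.00102). The gene that fell was Orm3, an orosomucoid, from 9.2, 8.98, 8.83 and 8.94 to 6.94, 6.83, 7.5 and 7.67 in the abdominal arrays and from 8.96, 9.3, 9.32 and 9.0 to 8.26, 8.47 and 8.02 in the thoracic ones. It fell by 1.32 ± 0.125 (adjusted p = 1.43e-05) with no overlap between diets, against the direction of most of its list.

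FoxO and fasting targets moved up as well. Of 20 genes 9 rose and 2 fell (45% and 10%, against 4.51% and 6.16% of all genes). In each segment 4 of the rises passed, and the median change was 0.31. Trp53inp1, a stress and autophagy gene of the p53 and FoxO pathways, read 8.11, 8.38, 8.01 and 8.1 on SCD and 9.1, 9.79, 10.06 and 9.74 on HPD in abdominal aorta. Thoracic values were 8.04, 8.13, 8.05 and 8.02 on SCD and 9.24, 9.61 and 9.6 on HPD. The SCD arrays of both segments stayed within 8.01 to 8.38, and all HPD arrays were at 9.1 or above (1.48 ± 0.115, 2.78-fold, adjusted p = 5.68e-06). Depp1, a gene induced by fasting and by progesterone, moved from 6.94, 6.84, 7.01 and 6.59 to 7.75, 8.48, 8.46 and 8.2 in the abdominal and from 7.22, 7.11, 7.4 and 6.91 to 8.0, 8.95 and 8.73 in the thoracic segment, again without overlap (1.39 ± 0.145, adjusted p = 2.3e-05). Pik3ip1, an inhibitor of PI3 kinase, rose by 0.67 ± 0.0941 (adjusted p = 0.00027), and Txnip, which curbs glucose uptake, by 0.4 ± 0.071 (adjusted p = 0.00166). The 2 falls, named after their values were seen, were those of the cyclin Ccng2 (-0.26 ± 0.0752, adjusted p = 0.0337) and of Angptl4, an inhibitor of lipoprotein lipase (-0.5 ± 0.152, adjusted p = 0.0491). Without the 5 arrays high in T and NK cell genes 6 genes of this list rose and 0 fell, and without the 3 high in hepatocyte genes 7 rose and 0 fell.

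Enzymes that oxidise and conjugate foreign compounds and hormones included the largest rise among named shared genes without overlap between diets. Of 20 cytochrome P450 and conjugation genes 9 rose and 2 fell (45% and 10%, against 4.51% and 6.16% of all genes). In each segment 6 of the rises passed, and the median change was 0.39. Cyp2b10, a P450 known in liver as the target of the receptor CAR, read 6.18, 5.71, 5.7 and 5.98 on SCD and 7.06, 7.09, 8.34 and 8.23 on HPD in abdominal aorta. It read 6.25, 6.39, 6.46 and 5.53 and 7.75, 8.59 and 8.4 in thoracic aorta. The abdominal HPD arrays fall into a lower pair, arrays 1 and 2, and a higher pair, arrays 3 and 4, which are the arrays high in hepatocyte genes. The thoracic HPD arrays, with hepatocyte means of 5.8 to 5.86, were as high as the higher pair or nearly so, and the change was 1.94 ± 0.219 (3.83-fold, adjusted p = 4.4e-05). Cyp2e1, a P450 gene on the hepatocyte list, had a change of 0.19 ± 0.0658 (adjusted p = 0.0928). It read 11.33 to 11.85 in all arrays, also in those low in hepatocyte genes, so its level did not follow the hepatocyte mean. Fgg, on the same list, read 3.57, 3.43, 9.61 and 11.66 in abdominal HPD arrays 1 to 4. The part of hepatocyte RNA in the Cyp2b10 values was not tested.

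Inmt, a methyltransferase for tryptamines, moved from 7.65, 7.94, 7.81 and 7.68 to 8.97, 9.44, 9.4 and 9.5 in the abdominal and from 7.37, 6.79, 7.03 and 7.39 to 7.89, 8.74 and 8.23 in the thoracic segment (1.35 ± 0.129, adjusted p = 1.43e-05). Cyp2d22 rose from 8.63, 8.38, 8.34 and 8.11 to 8.97, 9.11, 9.34 and 9.06 and, in the thoracic arrays, from 8.38, 8.56, 8.28 and 8.31 to 9.45, 9.55 and 9.57 (0.95 ± 0.0769, adjusted p = 6.29e-06). Cyp1b1, a P450 of vessel wall cells that acts on oestradiol and retinoids, rose by 0.95 ± 0.0947 (adjusted p = 1.76e-05), and the sulfotransferase Sult1a1 by 0.89 ± 0.0911 (adjusted p = 2.12e-05). In each of these 4 genes the HPD arrays lay above the SCD arrays of their segment. The falls, named after their values were seen, were those of Nnmt, a methyltransferase of nicotinamide (-0.69 ± 0.133), and Ephx2, an epoxide hydrolase (-0.59 ± 0.116). With the 5 arrays high in T and NK cell genes left out, 5 of these genes rose and 1 fell.

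Amino acid transporters were led by Slc7a8, which exchanges large neutral amino acids as a dimer with the heavy chain Slc3a2. Of 18 transporter genes 6 rose and 2 fell (33.3% and 11.1%, against 4.51% and 6.16% of all genes). In each segment 3 of the rises passed, and the median change was 0.28. Slc7a8 read 7.57, 7.31, 7.92 and 8.14 on SCD and 8.37, 8.91, 9.73 and 9.49 on HPD in abdominal aorta and 6.61, 7.05, 6.95 and 6.4 against 8.38, 9.25 and 9.18 in thoracic aorta. The thoracic SCD arrays were the lowest of all, and the gap between diets was widest there (1.79 ± 0.206, 3.46-fold, adjusted p = 4.87e-05). The heavy chain Slc3a2 rose with it, from 7.31, 7.5, 7.29 and 7.42 to 7.76, 7.9, 8.11 and 7.87 and from 7.22, 7.25, 7.15 and 7.11 to 7.49, 7.66 and 8.11 (0.55 ± 0.0839, adjusted p = 0.000498). Slc43a1, another carrier of large neutral amino acids, rose by 0.92 ± 0.102 (adjusted p = 4.01e-05). Slc36a2, a proton-coupled carrier found in brown fat, fell by 1.05 ± 0.149 (adjusted p = 0.000283), and Slc16a10, a carrier of aromatic amino acids named after its values were seen, fell by 0.48 ± 0.113 (adjusted p = 0.0115).

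Among 17 clock genes 6 rose and 2 fell (35.3% and 11.8%, against 4.51% and 6.16% of all genes). In each segment 1 rise passed, and the median change was 0.13. Per1, a repressor of the clock that glucocorticoids also induce, read 7.02, 7.27, 6.56 and 6.39 on SCD and 7.79, 7.64, 7.54 and 7.8 on HPD in abdominal aorta, and 7.03, 7.61, 6.47 and 7.02 against 7.95, 8.08 and 7.73 in thoracic aorta (0.88 ± 0.156, adjusted p = 0.00149). The diets did not overlap, though the SCD arrays of a segment were spread widely. Ciart, a repressor within the clock, rose by 0.7 ± 0.101 (adjusted p = 0.000311) and passed in each segment. Tef, an output gene of the clock, rose by 0.67 ± 0.124 on the probe set used, while its other probe set gave -0.11. Clock itself fell by 0.28 ± 0.0678 (adjusted p = 0.0135), and so did its relative Npas2 (-0.63 ± 0.192, adjusted p = 0.0489), singled out from its values. The labels give no hour of collection, and the part of that hour in these values was not tested. After the 5 arrays high in T and NK cell genes were left out, 2 clock genes rose and 0 fell, and without the 3 high in hepatocyte genes 3 rose and 3 fell.

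The other large rises belong to no single list. Cxcl13, a chemokine that draws B cells, read 8.2, 10.31, 9.46 and 10.95 on SCD and 11.11, 11.48, 11.18 and 11.42 on HPD in abdominal aorta, and 8.01, 7.23, 9.21 and 8.13 against 9.71, 11.1 and 10.21 in thoracic aorta. Its SCD arrays were widely spread, most of all in the abdominal group, and the abdominal change alone had an adjusted p of 0.0758. In the mean of the segments it rose by 1.88 ± 0.366 (3.69-fold, adjusted p = 0.00311). Il22ra2, a soluble decoy receptor of interleukin-22, had a similarly spread abdominal SCD group at 4.26, 5.71, 4.85 and 6.39, against 6.78, 6.77, 6.42 and 6.51 on HPD. In both genes the abdominal SCD arrays 2 and 4, which are high in T and NK cell genes, were the highest of their group. Thoracic Il22ra2 moved from 4.46, 3.92, 4.07 and 4.7 to 6.0, 5.82 and 6.46, and the change was 1.56 ± 0.25 (adjusted p = 0.000723).

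Apod, a lipocalin that carries small lipids, read 10.22, 10.08, 10.76 and 10.55 on SCD and 11.31, 11.32, 11.75 and 11.39 on HPD in abdominal aorta and 9.13, 9.31, 9.91 and 9.05 against 10.91, 11.3 and 11.42 in thoracic aorta (1.45 ± 0.139, adjusted p = 1.43e-05). Igfbp3, the main carrier of insulin-like growth factors, moved from 8.71, 8.76, 8.56 and 9.16 to 9.91, 10.2, 9.92 and 10.22 and from 8.09, 7.77, 7.89 and 8.25 to 8.95, 9.54 and 9.49 (1.3 ± 0.112, adjusted p = 7.33e-06). Ms4a4a, a tetraspan surface protein of myeloid cells, moved from 6.16, 6.11, 5.9 and 6.15 to 7.32, 7.32, 7.22 and 7.57 and from 6.16, 5.54, 5.51 and 5.6 to 7.13, 8.05 and 6.99 (1.48 ± 0.144, adjusted p = 1.43e-05). None of these genes had an HPD array at or below an SCD array of its segment, which was a condition for naming them among the largest rises. Galnt15, a glycosyltransferase that starts mucin-type sugar chains, rose evenly in both segments (1.16 ± 0.0991, adjusted p = 7.33e-06). Its SCD arrays lay between 5.92 and 6.31 and its HPD arrays between 6.9 and 7.75. The smallest p of all genes belonged to Slc10a6, a carrier of sulfated steroids, a gene singled out from its values (1.14 ± 0.0593, adjusted p = 1.39e-07).

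Macrophage genes and ribosomal genes rose by smaller amounts. Of 16 macrophage genes 7 rose (43.8%) and 0 fell, 1 passed in each segment, and the median change was 0.35. Cd163, the haemoglobin scavenger receptor, read 8.12, 8.09, 7.63 and 7.59 on SCD and 8.27, 8.48, 9.11 and 9.06 on HPD in abdominal aorta and 8.11, 8.27, 7.7 and 8.1 against 8.77, 9.88 and 8.67 in thoracic aorta (0.97 ± 0.186, adjusted p = 0.00288). Lyve1, a hyaluronan receptor of resident macrophages and lymphatic vessels, rose by 0.63 ± 0.11 (adjusted p = 0.00139), the complement gene C1qb by 0.34 ± 0.0759 (adjusted p = 0.00813) and Mertk, a receptor for dying cells, by 0.6 ± 0.111 (adjusted p = 0.00207). The list mean was 7.79 to 8.24 in abdominal HPD arrays against 7.55 to 8.01 on SCD, where it overlapped, and 7.91 to 8.31 against 7.6 to 7.85 in the thoracic segment. In a fit that left out the 5 arrays high in T and NK cell genes, 3 macrophage genes rose.

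Inflammatory signalling genes were counted apart. Of 16 genes 4 rose, namely Cxcl13, Nfkbia, the adhesion molecule Vcam1 (0.5 ± 0.116, adjusted p = 0.0101) and Socs3, a brake on cytokine signals (0.54 ± 0.133, adjusted p = 0.0156), whose other probe set gave -0.05. The 4 rises are 25% of the list, against 4.51% of all genes, 1 of them passed in each segment, and the list's median change was 0.11. Vcam1 read 7.24, 7.59, 7.26 and 7.78 on SCD and 8.43, 8.44, 7.65 and 8.24 on HPD in abdominal aorta, where the diets overlapped. Its highest values in each abdominal group were those of the arrays high in T and NK cell genes, whose part in its change was not tested. In thoracic aorta Vcam1 read 7.16, 7.16, 7.14 and 7.25 on SCD against 7.46, 7.58 and 7.33. Of 15 interferon response genes 0 rose and 0 fell, and of 17 immediate early genes 2 rose (0 without the 5 arrays high in T and NK cell genes), the RNA-binding protein Zfp36 (0.63 ± 0.109, adjusted p = 0.00119) and Ier3 (0.28 ± 0.0753, adjusted p = 0.0233).

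Of 31 genes of the cytosolic ribosome 18 rose (58.1%) and 0 fell, while 3 passed in each segment, and all 31 changes were above 0 with a median of 0.23. Rps6, a protein of the small subunit, read 12.07, 12.2, 12.07 and 12.17 on SCD and 12.38, 12.31, 12.36 and 12.32 on HPD in abdominal aorta and 12.04, 12.01, 12.17 and 12.06 against 12.42, 12.25 and 12.39 in thoracic aorta (0.25 ± 0.0383, adjusted p = 0.000527). The steps were small and the arrays of a group close together, so that the diets stood apart. Rps18 rose by 0.34 ± 0.0446 (adjusted p = 0.000163) on the probe set used, against 0.05 and -0.02 on 2 others. Ribosomal genes have many near-identical pseudogene copies, so which copy a probe set reads is uncertain. Without the 5 arrays high in T and NK cell genes 6 of the 31 rose.

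**Figure D3:**
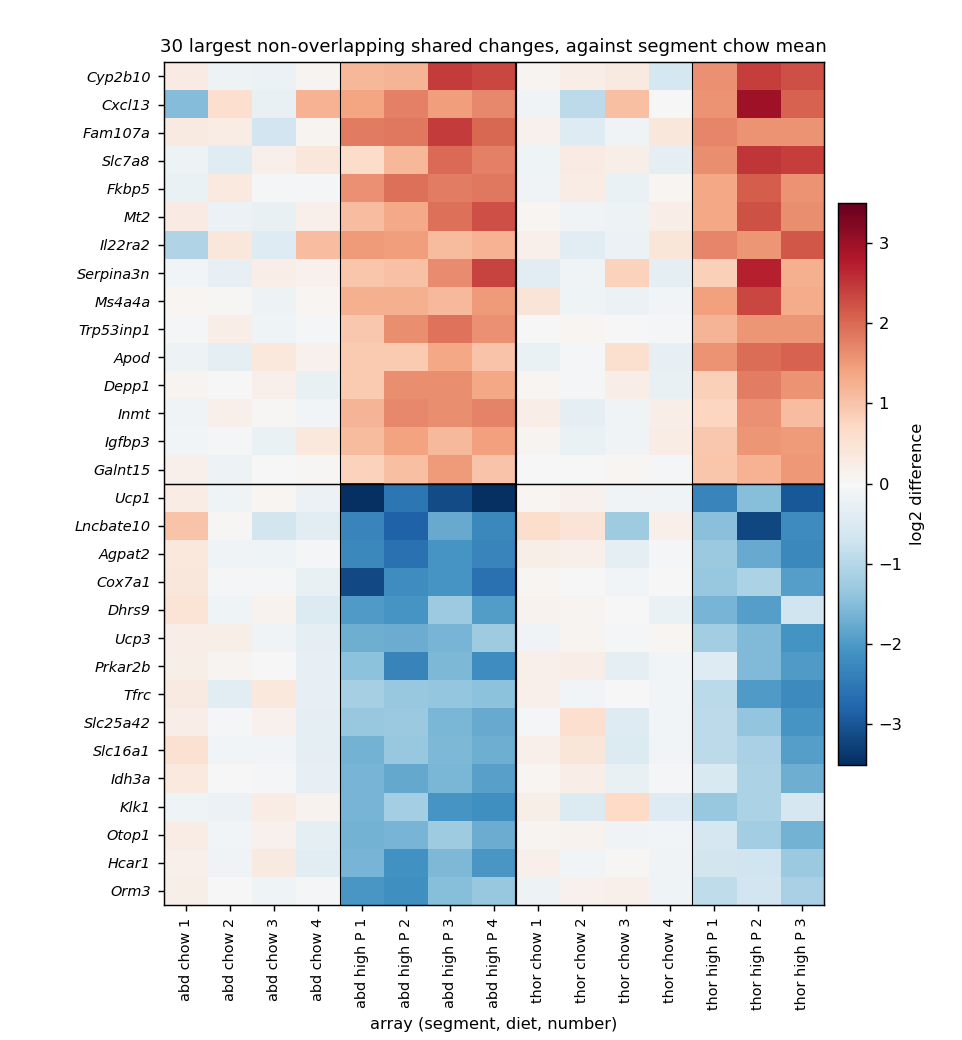
The 15 largest rises and 15 largest falls of the shared set, among genes whose diets did not overlap in either segment, drawn for each array as the log2 difference from the SCD mean of its segment (red higher, blue lower; abd and thor are the segments, chow is SCD, high P is HPD). The lowest values of Ucp1 lie beyond the end of the colour scale and are drawn in its darkest blue. The HPD columns are red above and blue below the line in both segments.

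Among the falls, genes of heat production and brown fat changed most. Of 16 genes of this list 13 fell (81.2%, against 6.16% of all genes) and 0 rose, 7 passed in each segment, and the median change was -0.82. Ucp1, which lets protons leak across the inner mitochondrial membrane, read 11.83, 11.41, 11.63 and 11.36 on SCD and 7.01, 9.03, 8.43 and 7.34 on HPD in abdominal aorta. It read 11.89, 11.97, 11.68 and 11.7 on SCD and 9.49, 10.32 and 8.84 on HPD in thoracic aorta. The SCD arrays of both segments were close together, and the HPD arrays were scattered but all below them. Ucp1 fell by 2.93 ± 0.27 (7.65-fold lower, adjusted p = 1.23e-05). Cox7a1, the heart, muscle and brown fat form of a cytochrome oxidase subunit, went from 10.74, 10.3, 10.28 and 10.1 to 7.19, 8.17, 8.28 and 7.74 and from 10.98, 10.92, 10.8 and 10.9 to 9.58, 9.8 and 8.97 (-1.98 ± 0.16, adjusted p = 6.29e-06). Ucp3, a relative of Ucp1, went from 7.66, 7.63, 7.31 and 7.13 to 5.72, 5.69, 5.8 and 6.19 and from 7.45, 7.69, 7.55 and 7.65 to 6.36, 6.04 and 5.48 (-1.6 ± 0.126, adjusted p = 5.8e-06). The HPD arrays of both segments overlapped in Ucp3, whereas in Cox7a1 the thoracic HPD arrays were all above the abdominal ones.

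Cox8b, another tissue-restricted oxidase subunit, fell by 1.19 ± 0.098 (adjusted p = 6.59e-06). Otop1, a proton channel known from brown fat and sour taste cells, fell by 1.36 ± 0.139 (adjusted p = 2.12e-05). Lncbate10, a long noncoding RNA known from brown fat, had a wide spread on SCD, with 9.84, 8.89, 8.21 and 8.48 in abdominal and 10.07, 9.91, 8.21 and 9.65 in thoracic aorta. Its HPD values were 6.54, 6.02, 7.08 and 6.6 and 8.01, 6.28 and 7.25, below all SCD values of their segment as its choice required. It fell by 2.29 ± 0.326 (4.88-fold lower, adjusted p = 0.000297). The mean of the thermogenesis list was 6.85 to 7.23 on HPD against 7.94 to 8.38 on SCD in abdominal aorta, and 7.39 to 7.87 against 8.29 to 8.59 in thoracic aorta. With the 5 arrays high in T and NK cell genes left out, 8 of the 16 genes fell, and without the 3 arrays high in hepatocyte genes 13 did.

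Markers of fat cells in general moved with these genes, more so in the abdominal segment. The mean of 16 pan-adipocyte genes was 8.72, 8.48, 8.88 and 8.73 in abdominal HPD arrays and 9.65, 9.52, 9.26 and 9.23 on SCD, without overlap. In thoracic aorta it was 9.33, 9.34 and 8.98 on HPD and 9.52, 9.61, 9.26 and 9.45 on SCD, where the diets overlapped. The median change of the list was -0.26, with -0.46 in the abdominal and -0.08 in the thoracic segment. Of its members 8 fell and 0 rose, and 2 passed in each segment, Hcar1, the lactate receptor that restrains lipolysis (-1.36 ± 0.126, adjusted p = 1.39e-05), and the hormone gene Retn (-1.18 ± 0.133, adjusted p = 4.32e-05). Plin1, which coats lipid droplets, fell by 1.32 ± 0.161 (adjusted p = 8.2e-05). Fabp4, the fatty acid binding protein of adipocytes, named after its values were seen, had a change of -0.09 ± 0.0347 (adjusted p = 0.103), and Pparg, the regulator of fat cell identity, likewise named, -0.16 ± 0.0982 (adjusted p = 0.364). The count of falls was 4 without the 5 arrays high in T and NK cell genes and 7 without the 3 high in hepatocyte genes. All genes were also fitted with the mean of this list as a covariate.

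Genes that burn fatty acids and run the tricarboxylic acid cycle fell almost throughout. Of 19 fatty acid oxidation genes 18 fell (94.7%) and 8 passed in each segment, with a median change of -0.76. Of 20 genes of the cycle 18 fell and 9 passed in each segment, with a median of -0.67, and no gene of either list rose. Cpt2, which releases fatty acids from carnitine inside mitochondria, read 10.15, 9.98, 9.96 and 9.65 on SCD and 8.73, 8.32, 8.74 and 8.47 on HPD in abdominal aorta and 10.2, 10.35, 10.07 and 10.01 against 9.5, 9.36 and 8.76 in thoracic aorta (-1.16 ± 0.112, adjusted p = 1.43e-05). Suclg1, a subunit of the enzyme that makes succinate, moved from 10.52, 10.48, 10.31 and 10.19 to 9.05, 8.97, 9.33 and 9.01 and from 10.73, 10.88, 10.64 and 10.74 to 10.13, 9.85 and 9.63 (-1.08 ± 0.0801, 2.11-fold lower, adjusted p = 4.21e-06). In both genes no HPD array reached an SCD array of its segment.

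Idh3a, of the isocitrate dehydrogenase that feeds electrons to complex I, moved from 10.58, 10.22, 10.19 and 9.93 to 8.61, 8.43, 8.64 and 8.32 and from 10.68, 10.84, 10.33 and 10.56 to 10.08, 9.5 and 8.88 (-1.43 ± 0.148, 2.69-fold lower, adjusted p = 2.3e-05). Cs, citrate synthase, fell by 0.74 ± 0.075 (adjusted p = 1.93e-05), and Mdh2, the mitochondrial malate dehydrogenase, by 0.63 ± 0.064 (adjusted p = 2.1e-05). In beta-oxidation Hadha fell by 1.08 ± 0.103 (adjusted p = 1.43e-05), Acaa2, which splits off acetyl-CoA, by 1.04 ± 0.107 (adjusted p = 2.14e-05), and Etfdh, which passes the electrons on to ubiquinone, by 0.73 ± 0.073 (adjusted p = 1.91e-05). Each of these genes had its larger fall in the abdominal segment. After the 5 arrays high in T and NK cell genes were left out, 16 genes of each list fell, and without the 3 high in hepatocyte genes 17 and 18 did.

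The respiratory chain fell along with them, with smaller median changes than fatty acid oxidation. Of 31 complex I genes 29 fell (93.5%), 20 of them in each segment, with a median change of -0.53. Of 33 genes of complexes III to V 27 fell (81.8%), 11 passed in each segment, and the median was -0.42. Ndufa1, a small subunit of complex I, read 10.24, 9.91, 9.92 and 9.82 on SCD and 8.71, 8.7, 8.93 and 8.8 on HPD in abdominal aorta and 10.3, 10.2, 10.24 and 10.28 against 9.83, 9.57 and 9.21 in thoracic aorta (-0.95 ± 0.0837, adjusted p = 8.07e-06). Ndufa11 moved from 9.96, 9.7, 9.68 and 9.62 to 8.81, 8.96, 8.97 and 8.64 and from 10.07, 10.25, 10.15 and 10.08 to 9.46, 9.38 and 9.58 (-0.78 ± 0.0655, 1.72-fold lower, adjusted p = 6.67e-06), and its other probe set by -0.38. The diets stood apart in both genes and both segments.

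Uqcrq, of complex III, fell by 0.77 ± 0.0741 (adjusted p = 1.43e-05), Cycs, cytochrome c, by 0.68 ± 0.0685 (adjusted p = 2e-05), and the ATP synthase subunits Atp5k and Atp5e by 0.56 ± 0.0489 (adjusted p = 8.07e-06) and 0.52 ± 0.0436 (adjusted p = 6.67e-06). Atp5k read 10.66, 10.54, 10.66 and 10.49 on SCD and 9.77, 9.91, 9.96 and 9.98 on HPD in abdominal aorta and 10.75, 10.73, 10.82 and 10.71 against 10.4, 10.39 and 10.19 in thoracic aorta. Cycs read 11.3, 11.15, 11.12 and 11.03 and 10.13, 10.25, 10.49 and 10.35 in abdominal aorta, and 11.34, 11.31, 11.15 and 11.3 and 10.95, 10.81 and 10.54 in thoracic aorta. In Atp5k and Cycs the SCD arrays of both segments agreed closely, and every HPD array was below them. In a fit that left out the 5 arrays high in T and NK cell genes, 26 complex I genes and 21 genes of complexes III to V fell, and without the 3 high in hepatocyte genes 29 and 27.

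Promoters of the respiratory chain are shown because these genes fell together and several hold the core of the element bound by NRF1, a factor known for its control of respiratory chain genes. The windows are the 250 bases before the start in RefSeq (GRCm38.p6), at chr17:56717512-56717761 on the plus strand for Ndufa11, chr5:108434400-108434649 on the minus strand for Atp5k and chr6:50566570-50566819 on the minus strand for Cycs. Capitals mark the core, CGCATGCG, which reads the same on both strands.
Ndufa11: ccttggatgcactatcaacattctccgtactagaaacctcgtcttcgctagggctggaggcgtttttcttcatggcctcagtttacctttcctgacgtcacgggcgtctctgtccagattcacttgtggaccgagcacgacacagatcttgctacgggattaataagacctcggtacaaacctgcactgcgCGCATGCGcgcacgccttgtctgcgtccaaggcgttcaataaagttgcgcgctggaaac
Atp5k: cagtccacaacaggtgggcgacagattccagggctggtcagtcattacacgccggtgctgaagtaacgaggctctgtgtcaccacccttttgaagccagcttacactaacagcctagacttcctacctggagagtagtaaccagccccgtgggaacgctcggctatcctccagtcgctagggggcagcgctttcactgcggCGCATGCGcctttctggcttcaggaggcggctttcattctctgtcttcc
Cycs: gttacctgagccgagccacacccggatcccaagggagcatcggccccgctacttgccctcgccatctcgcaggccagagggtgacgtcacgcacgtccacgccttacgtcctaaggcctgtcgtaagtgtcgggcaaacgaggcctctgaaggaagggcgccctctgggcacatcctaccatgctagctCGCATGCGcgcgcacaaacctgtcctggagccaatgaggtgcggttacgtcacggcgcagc
In each window the core lies within 61 bases of the start. It occurs in 366 of 16990 promoters of tested genes (2.15%), in 42 of 1083 of genes that fell (3.88%) and in 18 of 777 of genes that rose (2.32%). The shares were 5 of 27 (18.5%) for complexes III to V, 5 of 35 (14.3%) for the mitochondrial ribosome and 2 of 28 (7.14%) for complex I. It was in 0 of 18 promoters of the tricarboxylic acid cycle, whose median change was -0.67. Another motif, TNAAGGTCA, the element of oestrogen-related receptors, was in 0.554% of promoters of genes that fell and 0.942% of all.

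Mitochondrial protein synthesis and transport fell by less. Of 42 mitochondrial ribosome genes 30 fell (71.4%) and 0 rose, but 2 passed in each segment, and the median change was -0.28. Mrpl12, of the large subunit, read 7.59, 7.27, 7.17 and 7.09 on SCD and 6.49, 6.4, 6.54 and 6.52 on HPD in abdominal aorta and 7.62, 7.69, 7.6 and 7.55 against 6.99, 6.77 and 6.97 in thoracic aorta (-0.75 ± 0.0709, adjusted p = 1.43e-05). Its diets stood apart in both segments. The count of falls was 6 without the 5 arrays high in T and NK cell genes and 22 without the 3 high in hepatocyte genes. Of 22 mitochondrial carriers 10 fell (45.5%), and 6 without those 5 arrays, led by Slc25a42, which brings coenzyme A into the matrix. It moved from 8.66, 8.4, 8.6 and 8.1 to 7.11, 7.13, 6.84 and 6.67 and from 8.72, 9.36, 8.31 and 8.67 to 7.85, 7.39 and 6.69 (-1.48 ± 0.173, 2.79-fold lower, adjusted p = 5.8e-05). Slc25a20, the carnitine carrier of fatty acid oxidation, fell by 1.17 ± 0.197 (adjusted p = 0.00109).

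Genes of lipid synthesis fell at several steps. Of 14 triglyceride synthesis genes 7 fell (50%, against 6.16% of all genes), 5 of them in each segment, and 1 rose (7.14%), with a median change of -0.36. Agpat2, which adds the second fatty acid to the glycerol backbone, had the smallest p of all falls. It read 9.15, 8.67, 8.63 and 8.72 on SCD and 6.55, 6.18, 6.72 and 6.49 on HPD in abdominal aorta and 9.02, 8.99, 8.48 and 8.74 against 7.51, 7.05 and 6.55 in thoracic aorta (-2.04 ± 0.138, 4.11-fold lower, adjusted p = 2.53e-06). Gpam, which adds the first, fell by 0.75 ± 0.0996 (adjusted p = 0.000167), Gpat3, of the same step, by 1.08 ± 0.136 (adjusted p = 0.000103), with -0.14 on its other probe set, and Mogat1 by 0.78 ± 0.0717 (adjusted p = 1.21e-05). The rise, named after its values were seen, was that of the phosphatase Lpin1, which glucocorticoids are known to induce (0.56 ± 0.153, adjusted p = 0.027).

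Of 16 genes of de novo lipogenesis 10 fell (62.5%) and 0 rose, 1 passed in each segment, and the median was -0.7. Fasn, fatty acid synthase, had SCD values as far apart as 10.83, 10.15, 8.84 and 10.76 in thoracic aorta, against 8.87, 8.53 and 7.56 on HPD, so the diets overlapped by 1 array there. In abdominal aorta it read 11.12, 10.03, 9.42 and 10.97 on SCD and 8.81, 7.69, 8.08 and 8.62 on HPD, and it fell by 1.95 ± 0.337 (adjusted p = 0.00125). Elovl5, an elongase of polyunsaturated fatty acids, fell by less but evenly, from 9.99, 9.51, 9.83 and 9.77 to 9.2, 9.23, 9.24 and 8.97 and from 9.73, 9.5, 9.54 and 9.66 to 9.08, 9.09 and 8.93 (-0.6 ± 0.0696, adjusted p = 5.63e-05). Thrsp fell by 0.67 ± 0.11 (adjusted p = 0.000848), and Pnpla3, a target of the lipogenic factor SREBP1, by 1.37 ± 0.213 (adjusted p = 0.000609). The count was 3 without the 5 arrays high in T and NK cell genes and 6 without the 3 high in hepatocyte genes.

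In cholesterol synthesis 2 of 14 genes fell (14.3%, against 6.16% of all genes), both in each segment. In this list 1 gene rose (7.14%, against 4.51%), and the median was -0.18. Hmgcs1, which makes the precursor of mevalonate, read 9.97, 9.81, 10.51 and 10.16 on SCD and 9.3, 9.24, 9.35 and 9.12 on HPD in abdominal aorta and 9.88, 10.05, 9.86 and 9.73 against 9.02, 8.6 and 8.55 in thoracic aorta (-1.01 ± 0.0988, adjusted p = 1.57e-05). Insig1, which retains the sterol sensor in the endoplasmic reticulum, moved from 10.73, 10.37, 10.11 and 10.58 to 9.3, 9.25, 9.37 and 9.47 and from 10.41, 10.12, 9.79 and 10.43 to 9.24, 9.02 and 8.95 (-1.11 ± 0.105, 2.16-fold lower, adjusted p = 1.43e-05). These were among the falls that were at least as large in the thoracic segment. Fdft1, squalene synthase, rose by 0.27 ± 0.0699 (adjusted p = 0.0186), with changes of 0.06 in the abdominal and 0.49 in the thoracic segment.

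Iron genes changed in both directions. Of 15 genes 3 rose and 3 fell (20% each, against 4.51% and 6.16% of all genes). Tfrc, the receptor that takes up transferrin, read 9.08, 8.38, 9.13 and 8.47 on SCD and 7.61, 7.43, 7.4 and 7.33 on HPD in abdominal aorta and 9.18, 8.9, 9.02 and 8.89 against 8.05, 7.01 and 6.77 in thoracic aorta (-1.52 ± 0.169, 2.87-fold lower, adjusted p = 3.72e-05). The thoracic HPD arrays were spread more widely than the others, and all of them were below the SCD arrays. Aco1, the iron-sensing protein IRP1, fell by 1.0 ± 0.113 (adjusted p = 4.45e-05), and Alas1, the first enzyme of haem synthesis, by 0.86 ± 0.163 (adjusted p = 0.00247). Hmox1, which breaks haem down, rose by 0.69 ± 0.153 (adjusted p = 0.00795), and so did ceruloplasmin (above) and the ferritin heavy chain Fth1, named after its values were seen (0.11).

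Other large falls included enzymes and signalling genes. Dhrs9, a retinol dehydrogenase, read 7.45, 6.81, 7.1 and 6.5 on SCD and 4.97, 4.9, 5.68 and 5.0 on HPD in abdominal aorta and 7.77, 7.74, 7.66 and 7.42 against 6.03, 5.72 and 6.96 in thoracic aorta (-1.62 ± 0.185, 3.08-fold lower, adjusted p = 4.76e-05). Array 3 was the highest of the HPD group in both segments. Prkar2b, a regulatory subunit of the cAMP-dependent kinase, moved from 10.68, 10.56, 10.46 and 10.2 to 9.05, 8.14, 8.9 and 8.31 and from 10.75, 10.79, 10.26 and 10.46 to 10.11, 9.03 and 8.58 (-1.6 ± 0.2, adjusted p = 9.74e-05). Slc16a1, a carrier of lactate and ketone bodies, fell by 1.44 ± 0.17 (adjusted p = 5.96e-05). Klk1, a kallikrein, read 7.94, 7.88, 8.35 and 8.22 on SCD and 6.48, 6.9, 6.02 and 5.95 on HPD in abdominal aorta, and 5.47, 4.79, 5.97 and 4.81 against 3.94, 4.16 and 4.67 in thoracic aorta, where its level was lower than in abdominal aorta (-1.38 ± 0.195, adjusted p = 0.000272). Its thoracic fall alone had an adjusted p of 0.082.

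Matrix genes fell as well, with 10 collagen genes among them. Of 33 extracellular matrix genes 16 fell (48.5%) and 1 rose, 4 passed in each segment, and the median change was -0.29, with -0.46 in the abdominal and -0.18 in the thoracic segment. Col6a3, a chain of the microfibrillar collagen VI, read 7.86, 7.63, 7.58 and 7.55 on SCD and 6.69, 6.45, 6.71 and 6.48 on HPD in abdominal aorta and 7.77, 7.74, 7.57 and 7.69 against 7.0, 7.01 and 7.0 in thoracic aorta. The thoracic HPD arrays were almost identical, and the diets stood apart (-0.88 ± 0.0623, 1.84-fold lower, adjusted p = 2.64e-06). Col3a1, a fibrillar collagen of the vessel wall, moved from 9.06, 8.85, 9.03 and 8.76 to 7.32, 7.67, 7.81 and 7.35 and from 8.82, 8.83, 8.99 and 8.99 to 8.23, 8.48 and 8.2 (-1.0 ± 0.0824, adjusted p = 6.59e-06). Col15a1, of basement membranes, fell by 0.8 ± 0.094 (adjusted p = 5.82e-05), and Col6a1 by 0.63 ± 0.0684 (adjusted p = 3.15e-05). The proteoglycan Dcn, chosen for mention because it was the 1 gene that rose, had 0.17 ± 0.0363 (adjusted p = 0.00641). Without the 5 arrays high in T and NK cell genes 11 matrix genes fell, and without the 3 high in hepatocyte genes 18 did.

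Of 13 adventitial fibroblast genes 5 fell (38.5%, against 6.16% of all genes), among them Lum (-1.15 ± 0.136, adjusted p = 6.49e-05), Dpt (-0.73 ± 0.09, adjusted p = 8.57e-05) and Cd34 (-0.48 ± 0.0761, adjusted p = 0.000645). Of these falls 0 passed in each segment. The abdominal and thoracic changes were -1.502 and -0.789 for Lum, -1.115 and -0.348 for Dpt, and -0.782 and -0.184 for Cd34. Dpep1, a membrane dipeptidase on the same list, rose in each segment, from 7.35, 7.33, 6.58 and 6.99 to 7.74, 8.14, 8.51 and 7.91 and from 7.33, 7.32, 6.78 and 7.37 to 7.81, 8.38 and 8.45 (1.01 ± 0.153, adjusted p = 0.000467). The list thus held changes in both directions, with a median of -0.14, and had 3 falls without the 5 arrays high in T and NK cell genes. Among 22 Wnt genes 4 fell (1 without those 5 arrays) and 1 rose, led by the secreted inhibitors Sfrp2 (-0.86 ± 0.0996, adjusted p = 5.39e-05, and -0.21 on its other probe set) and Sfrp4 (-0.81 ± 0.149, adjusted p = 0.00205). Of the Wnt list 18.2% fell and 4.55% rose, against 6.16% and 4.51% of all genes, and 1 of the falls passed in each segment. Sfrp4 changed by -1.299 in abdominal and -0.328 in thoracic aorta, the latter with an adjusted p of 0.588 by limma. The endothelial list also changed in both directions, with 5 of 17 genes lower (29.4%) and 1 higher (5.88%). Kdr, the main receptor of VEGF, read 9.7, 9.52, 9.36 and 9.39 on SCD and 9.04, 9.06, 8.88 and 8.89 on HPD in abdominal aorta (-0.56 ± 0.0995, adjusted p = 0.00166), and the factor Sox18 fell by 0.54 ± 0.094 (adjusted p = 0.00126). Pecam1, a junction protein of all endothelium, rose from 9.45, 9.57, 9.27 and 9.54 to 9.83, 9.81, 9.81 and 9.7 and from 9.47, 9.38, 9.38 and 9.48 to 9.79, 9.73 and 9.84 (0.34 ± 0.0488, adjusted p = 0.000299). With the 5 arrays high in T and NK cell genes left out, 1 endothelial gene fell and 2 rose.

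Of 22 contractile genes of smooth muscle 1 rose and 1 fell, 4.55% in each direction against 4.51% and 6.16% of all genes, and the median changes were -0.21 in the abdominal and 0.04 in the thoracic segment. Synm, synemin, an intermediate filament protein, read 7.17, 7.12, 7.14 and 6.97 on SCD and 7.39, 7.53, 8.04 and 7.68 on HPD in abdominal aorta and 6.83, 7.16, 6.8 and 6.95 against 7.84, 7.71 and 7.7 in thoracic aorta (0.69 ± 0.0874, adjusted p = 0.000109), with every HPD array above every SCD array. Vcl, vinculin, which links actin to the membrane, fell by 0.45 ± 0.0803 (adjusted p = 0.00173). Acta2, smooth muscle actin, did not pass (-0.28 ± 0.0922, adjusted p = 0.0644).

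The genes most often discussed for phosphate and vascular calcification were then read one by one. Of 17 genes for phosphate transport and its hormones 2 fell (11.8%, against 6.16% of all genes) and 0 rose (against 4.51%). In each segment 0 of them passed, and the median change was -0.01, the same as that of all genes. Pth1r, the receptor of parathyroid hormone, read 6.46, 6.3, 6.24 and 6.28 on SCD and 5.86, 5.8, 5.91 and 5.99 on HPD in abdominal aorta and 6.75, 6.21, 6.33 and 6.44 against 6.18, 6.26 and 6.01 in thoracic aorta, where the diets overlapped (-0.36 ± 0.077, adjusted p = 0.00625). Phex, an endopeptidase of bone that affects FGF23, moved from 6.03, 5.97, 5.26 and 5.64 to 4.96, 4.85, 5.4 and 5.22 and from 6.24, 5.98, 5.96 and 6.04 to 5.62, 5.75 and 5.65, with an overlap of the diets in abdominal aorta (-0.5 ± 0.114, adjusted p = 0.00948). Both had an adjusted p under 0.05 in the abdominal segment and not in the thoracic one, where it was 0.252 and 0.324.

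The phosphate carriers of most cells, Slc20a1 (0.18 ± 0.108, adjusted p = 0.375) and Slc20a2 (-0.12 ± 0.099, adjusted p = 0.518), did not pass. Slc20a1 read 7.75, 7.85, 7.56 and 8.19 on SCD and 8.36, 8.13, 7.63 and 8.02 on HPD in abdominal aorta and 7.46, 7.61, 7.26 and 7.39 against 7.71, 7.56 and 7.49 in thoracic aorta, with overlap in both. The exporter Xpr1 had a change of 0.01 ± 0.056 (adjusted p = 0.934), Klotho (Kl) of -0.12 ± 0.0825 (adjusted p = 0.431), and the vitamin D receptor Vdr of 0.21 ± 0.0655 (adjusted p = 0.0571). The carriers Slc34a1, Slc34a2 and Slc34a3, known from kidney and gut, had changes of -0.01, -0.21 and 0.03.

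Of 12 genes on the list of calcification inhibitors and pyrophosphate 1 rose and 1 fell (8.33% each, against 4.51% and 6.16% of all genes), with a median of 0.01. Nt5e, the ecto-enzyme that makes adenosine, read 8.04, 8.08, 7.82 and 8.01 on SCD and 8.22, 8.39, 8.33 and 8.47 on HPD in abdominal aorta and 7.72, 7.56, 8.01 and 7.79 against 7.91, 7.94 and 7.87 in thoracic aorta, where the diets overlapped (0.25 ± 0.0669, adjusted p = 0.0246). Alpl, the phosphatase that degrades the inhibitor pyrophosphate and marks bone-forming cells, fell, from 7.09, 6.96, 7.16 and 6.91 to 6.41, 6.51, 6.78 and 6.76 and from 7.19, 6.94, 6.91 and 7.02 to 6.79, 6.74 and 6.49 (-0.38 ± 0.0767, adjusted p = 0.00429), without overlap. Mgp, the matrix protein that keeps arteries free of mineral, was among the most abundant genes, at 12.12, 12.02, 12.1 and 11.65 on SCD and 11.62, 11.73, 12.16 and 11.9 on HPD in abdominal aorta (0.02 ± 0.0914, adjusted p = 0.943). The pyrophosphate exporter Ank had a change of -0.26 ± 0.0876 (adjusted p = 0.0747) and Abcc6, which lets ATP out of cells, of 0.0 ± 0.0726 (adjusted p = 0.98). Of 16 osteochondrogenic genes 1 passed (6.25%, against 6.16% of all genes lower), Alpl, which is on both lists. The osteoblast factor Sp7 (-0.06 ± 0.0604), the cartilage factor Sox9 (-0.07 ± 0.0523), Bmp2 (-0.09 ± 0.0751) and the bone matrix gene Bglap (-0.16 ± 0.113) had adjusted p of 0.596, 0.493, 0.54 and 0.448. After the 5 arrays high in T and NK cell genes were left out, Pth1r, Phex, Alpl and Nt5e did not pass.

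**Figure D4:**
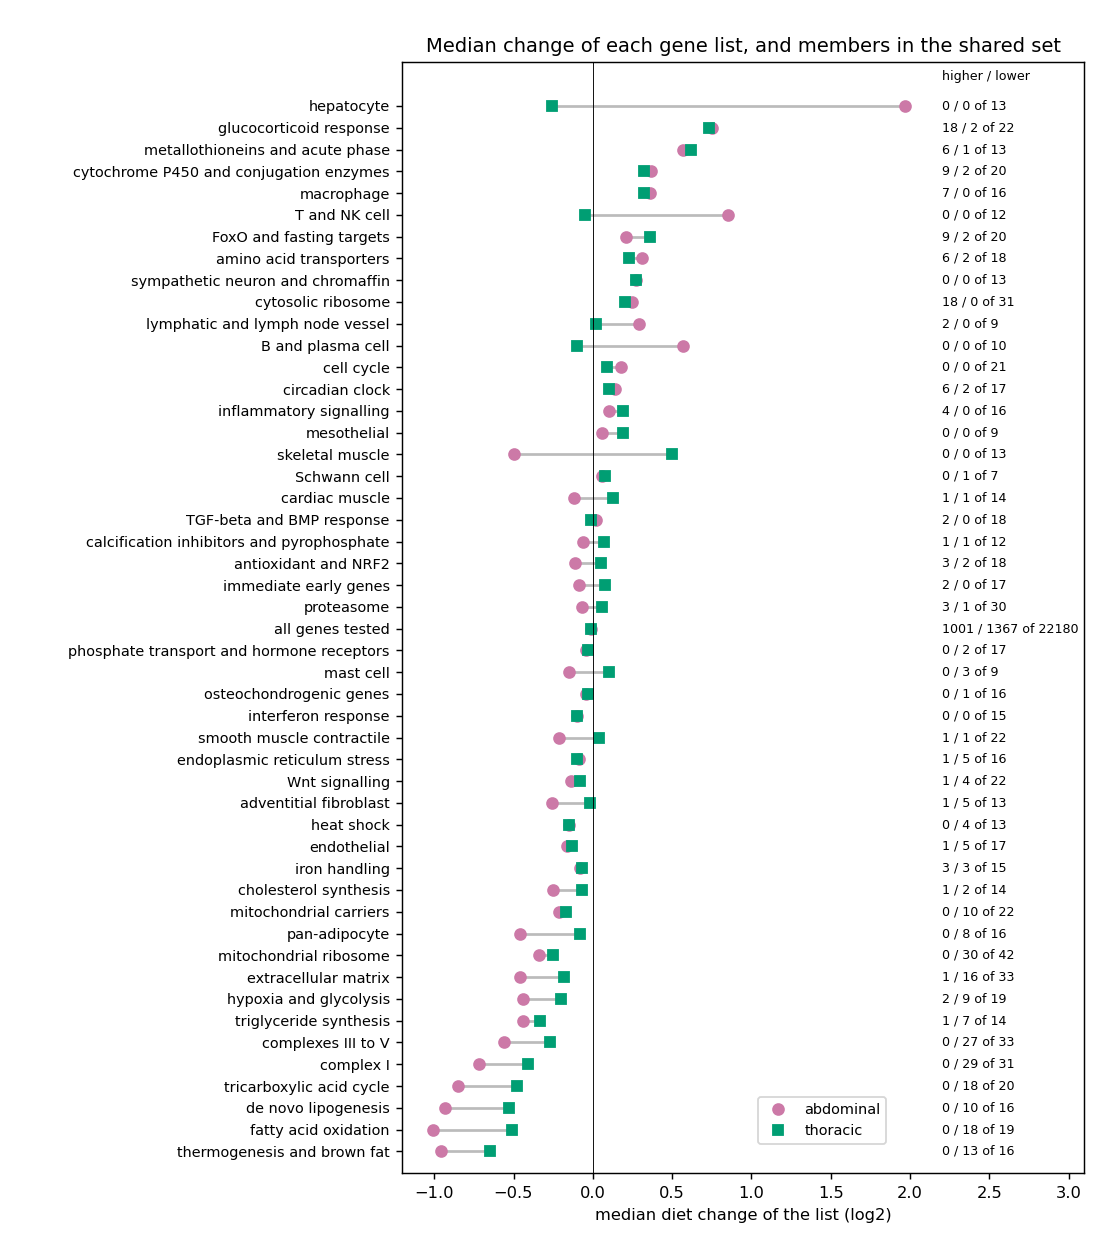
Median diet change of each gene list in abdominal (circles) and thoracic aorta (squares), HPD minus SCD on the log2 scale, with the members of the shared set given at the right as higher / lower of those measured. The glucocorticoid list stands at 0.75 and 0.73, the thermogenesis list at -0.96 and -0.65, and the phosphate and calcification lists near all genes at -0.01, whereas the hepatocyte list (1.97 and -0.26) and the T and NK cell list (0.85 and -0.05) differ between segments and have 0 members in the shared set.

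Since fat markers moved with the diet, the fit was repeated with each array's pan-adipocyte mean as a covariate. The shared set then held 313 genes, 243 higher (1.1%) and 70 lower (0.316%), and 22 genes passed in each segment. Of the 1001 rises 196 passed in this fit too, and of the 1367 falls 63. The share of rises thus went from 42.3% to 77.6%. The covariate itself differed between diets, by more in abdominal aorta, so this fit takes out any diet change that runs parallel to it, and the part of fat content in the falls was not tested further.

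With the covariate 12 genes of the glucocorticoid list were higher and 0 lower. Fkbp5 had a change of 1.85 (adjusted p = 0.00166), Fam107a of 2.2 (0.00181), Mt2 of 2.02 (0.00447) and Map3k6 of 1.28 (0.000458), none of them smaller than without it. Clock genes had 8 rises, among them Per1 at 1.51 (adjusted p = 0.00354), and FoxO and fasting targets had 6. Slc7a8 had 1.64 (adjusted p = 0.0532), and Cxcl13 and Il22ra2 shrank to 0.74 and 0.84 (adjusted p = 0.681 and 0.44). Of the cytosolic ribosome 0 genes passed, and of macrophage genes 2.

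Among the falls, Ucp1 had a change of -2.68 (adjusted p = 0.0171), Agpat2 of -1.37 (0.000718), Cox7a1 of -1.54 (0.0117) and Col6a3 of -0.66 (0.00295). Of complex I 9 genes were lower, of complexes III to V 5, of the thermogenesis list 4, of fatty acid oxidation and of the matrix 3 each and of the tricarboxylic acid cycle 2, namely Suclg1 (-0.71, adjusted p = 0.00216) and Cs (-0.41, adjusted p = 0.0392). Hmgcs1 and Insig1 stayed lower (-1.05 and -0.8), whereas 0 genes of de novo lipogenesis were lower. Of the 30 largest changes among genes without overlap between diets 11 did not pass. The changes of these remained in the same direction, and among the falls Lncbate10 was at -1.03, Prkar2b at -0.8, Slc25a42 at -0.93, Otop1 at -0.85, Idh3a at -0.78 and Slc16a1 at -0.76. Tfrc, at -1.27 (adjusted p = 0.0612), and among the rises Serpina3n, at 1.51 (0.236), had changes nearer to those without the covariate, and their calls ended. Klk1 was at -2.25 (adjusted p = 0.000551).

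**Figure D5:**
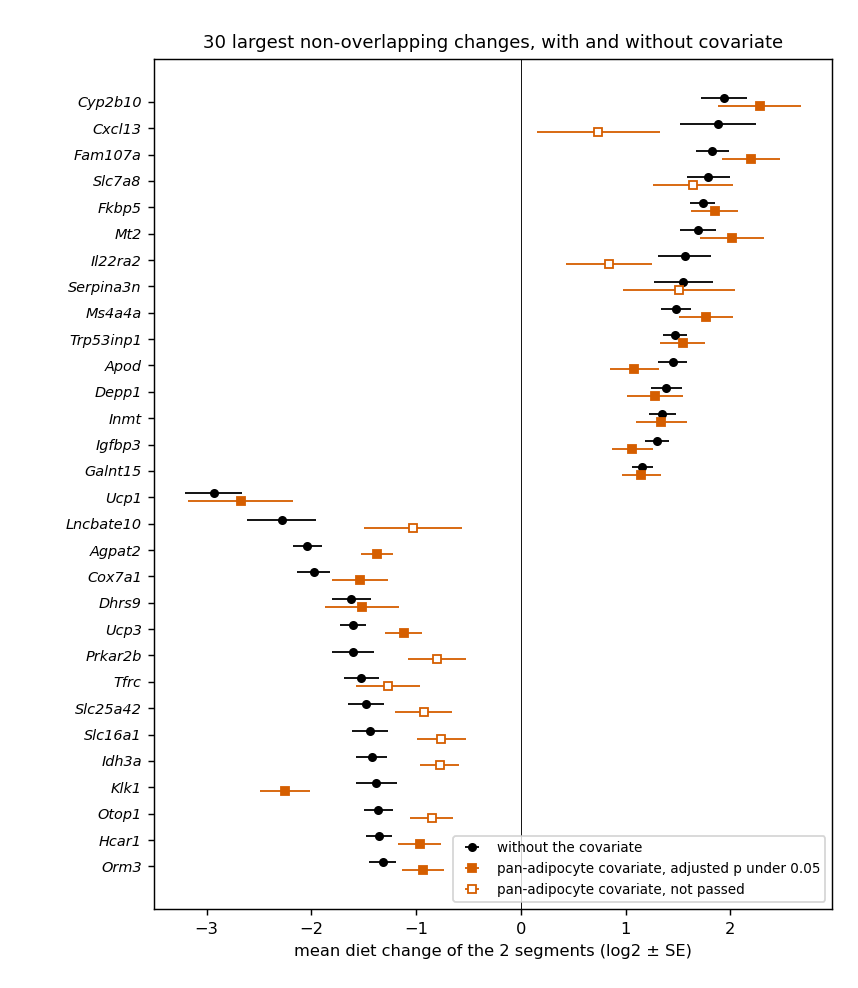
Mean diet change of both segments, HPD minus SCD on the log2 scale with its SE, for the 15 largest rises and 15 largest falls among shared genes whose diets did not overlap in either segment, without (black circles) and with the pan-adipocyte mean as a covariate (orange squares, filled where the adjusted p is under 0.05). Rises such as Fam107a and Mt2 were as large or larger with it, and most falls moved toward 0, Ucp1 from -2.93 to -2.68 and Lncbate10 from -2.29 to -1.03.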

How the data were processed

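Gene expression was measured on 15 arrays of mouse abdominal and thoracic aorta. The authors deposited 1 log2 intensity per probe set and array. RMA and Partek are named in the submitters' processing notes, with no version given. The log base was inferred from the range of the deposited values, 1.381 to 13.33, and the build used for the array is not given in the sources used here. Of 41345 probe sets, 23521 name 1 gene, 1814 name several and 16010 are unnamed here. The brightest probe set by its mean over all arrays stood for each of 22180 genes, and 23477 of the 23521 symbols matched RefSeq.

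The 4 group means entered a linear model in limma (version 3.58.1, R 4.3.3), whose empirical Bayes step used an intensity trend, with 11 residual degrees of freedom, after a test on simulated data. The contrast was the mean of both within-segment diet differences. A gene counted as shared at an adjusted p under 0.05 (Benjamini-Hochberg, two-sided) with the same sign in each segment. P-values measure the spread between the samples of a group. The members and the 48 gene lists were chosen with earlier results of these data known. Genes named are the 15 largest rises and 15 largest falls without overlap between diets, up to 4 members of each list with the smallest p, and members of the phosphate, calcification and osteochondrogenic lists. Exceptions are marked in the text. Alternatives changed the model, variance prior, filter, normalization, weights, pairing, threshold, probe set rule, arrays and fat covariate.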

Additional observations from a re-analysis of the deposited data

Results flagged for a closer look

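In 90 groups of 4 arrays, from the 30 genes with the largest shared changes among those without overlap between diets, each highest and lowest array was compared with its nearest neighbour. A gap above 0.829 of the group's range was found in 2 groups, and chance alone gives such a gap in about 1 in 20 groups. Ms4a4a was 6.16 in thoracic SCD array 1, against 5.51 to 5.6 in the other 3 arrays of the group, and all thoracic HPD arrays were higher still. Dhrs9 was 5.68 in abdominal HPD array 3, against 4.9 to 5.0 in the other 3, and all abdominal SCD arrays were higher. Both genes stayed in the shared set when any 1 array was left out.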

How the results depend on the processing

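The 30 largest changes among shared genes without overlap between diets kept their direction and passed under every alternative fitted here, except that 11 did not pass with the pan-adipocyte covariate. Of 146 named genes that passed, 13 did not pass when 1 array or another was left out, 12 without the 3 arrays high in hepatocyte genes, 37 without the 5 high in T and NK cell genes, 30 with 1 value per diet and replicate number, and 88 with the covariate, under which Hspa1a turned to 0.042 (adjusted p = 0.981). The shared set held 313 genes with the covariate, 983 without the 5 arrays, 1069 (358 higher, 711 lower) with 1 value per diet and number, and 520 at an unadjusted p under 0.05 with a 1.5-fold change. Leaving out 1 array gave 1954 to 2702. Genes that passed in each segment numbered 22 with the covariate, 183 and 61 without the 3 and the 5 arrays, 688 at an adjusted p under 0.1, 254 at the unadjusted threshold, and 166 to 403 with 1 array left out. Genes that differed between segments numbered 5 without the 5 arrays, 44 at the unadjusted threshold, and 0 to 1 with 1 array left out, the 1 gene appearing without abdominal HPD array 3. Without the 5 arrays the abdominal HPD group is 1 array, assumed to vary like the other groups. That array, HPD array 3, had a hepatocyte mean of 8.59, so no abdominal HPD array was low in both T and NK cell genes and hepatocyte genes. The cause of these shifts was not tested, beyond the smaller number of arrays in some fits.

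Arrays with the same number did not deviate together (r from 0.03 to 0.122 across segments and from -0.25 to 0.404 across diets), so the numbers were not taken to pair them. With the replicate number as a block the shared set held 2604 genes and 497 passed in each segment. With same-numbered arrays of a diet treated as 1 mouse, as a random block, the counts were 2155 and 402. The number of arrays limits what small changes could be detected, and arrays give no read depth.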

Other observations

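Of 13 heat shock genes 4 fell (30.8%, against 6.16% of all genes) and 0 rose. They were the cytosolic Hspa1a (-0.89 ± 0.264, adjusted p = 0.0423) and Hsph1 (-0.44 ± 0.0876, adjusted p = 0.00368), Hspd1, the mitochondrial chaperonin (-0.39 ± 0.0604, adjusted p = 0.000611 by limma), and Hspa9, the mitochondrial form of Hsp70 (-0.29 ± 0.0645, adjusted p = 0.00826). Of 16 genes of endoplasmic reticulum stress 5 fell (31.2%) and 1 rose, with the calcium-binding chaperone Calr (-0.40 ± 0.0657, adjusted p = 0.000877) and the stress factor Ddit3 (-0.31 ± 0.0693, adjusted p = 0.00799) lower and Herpud1, of the degradation pathway, higher (0.43 ± 0.0827, adjusted p = 0.00295). Of 19 hypoxia and glycolysis genes 9 fell (47.4%) and 2 rose (10.5%), and 2 of the falls passed in each segment. P4ha1, which hydroxylates collagen, fell by 0.58 ± 0.0609 (adjusted p = 2.3e-05), Pfkl, a phosphofructokinase, by 0.76 ± 0.115 (adjusted p = 0.000507), and the oxygen sensor Egln1 by 0.64 ± 0.0932 (adjusted p = 0.000358). Pgam1 fell by 0.41 ± 0.0562 on the probe set used and had 0.00 on its other one. Without the 5 arrays high in T and NK cell genes 3 genes of this list fell and 2 rose, and the falls numbered 1 for heat shock and 2 for endoplasmic reticulum stress.

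Of 18 antioxidant and NRF2 target genes 3 rose (16.7%, against 4.51% of all genes) and 2 fell (11.1%), with a median change of 0. Gpx3, a secreted peroxidase, rose by 0.59 ± 0.103 (adjusted p = 0.00144), the glutathione transferase Gstm1 by 0.28 ± 0.0632 (adjusted p = 0.00922) and Hmox1 by 0.69 ± 0.153 (adjusted p = 0.00795). Sod2, the superoxide dismutase of mitochondria, fell by 0.85 ± 0.103 (adjusted p = 7.84e-05), and Prdx3, a peroxiredoxin named after its values were seen, by 0.32 ± 0.0839 (adjusted p = 0.0204). Of 9 mast cell genes 3 fell (33.3%), with the granule protease Mcpt4 at -0.65 ± 0.124 (adjusted p = 0.00276), while 4 had changes above 0. None of the 9 passed without the 5 arrays high in T and NK cell genes or with the pan-adipocyte covariate. Of 18 genes of the TGF-beta and BMP response 2 rose (11.1%, against 4.51% of all genes), Id3 (0.36 ± 0.0933, adjusted p = 0.0199) and Tgfbr1 (0.21 ± 0.0576, adjusted p = 0.031). Of 30 proteasome genes 3 rose (10%) and 1 fell (3.33%), and 0 rose without the 5 arrays high in T and NK cell genes or without the 3 high in hepatocyte genes. Of 9 lymphatic genes 2 rose (22.2%, against 4.51% of all genes), Lyve1 and Mmrn1 (0.46 ± 0.0933, adjusted p = 0.00436). Mmrn1 changed by 0.8 in abdominal and 0.118 in thoracic aorta, the latter with an adjusted p of 0.806 by limma. The mean of this list was 7.76, 7.82, 7.46 and 7.76 in abdominal HPD arrays and 7.07, 7.49, 7.26 and 7.62 on SCD. In each group the arrays high in T and NK cell genes were the highest, and their part in the rises was not tested. Schwann cells were represented by 7 genes, of which S100b, also expressed by fat cells, fell (-0.95 ± 0.197, adjusted p = 0.00503). Cardiac muscle genes, present in thoracic arrays at a mean of 7.55 to 8.2 against 6.01 to 6.27 in abdominal ones, had 1 rise and 1 fall among 14 (7.14% each, against 4.51% and 6.16% of all genes). None of the 21 cell cycle genes passed, nor did any of the lists for B and plasma cells, sympathetic neurons and chromaffin cells, skeletal muscle and mesothelium.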
